A study of Homo sapiens with 24 samples.

Results

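The 41 genes described here act in G2 phase and mitosis, the steps in which a cell that has copied its DNA divides it between 2 daughter cells. They were chosen by symbol from a list drawn up with earlier results of these data known. Their shares, set beside those of all tested genes, are therefore not an independent comparison. All 41 were found among the 34834 genes with at least 1 transcript in the deposited tables. All 41 were among the 17453 genes that were tested, each with 10 or more estimated counts in 3 or more libraries. RNA-Seq was performed on SK-MES-1, an established cell line derived from a squamous cell carcinoma of the lung, so that each value refers to 1 cell line in culture. Cells of all groups had been thawed at low passage and were starved of serum and growth factors for 3 h. The TGFβ arm then received 2 ng/ml TGFβ1 and the untreated arm did not. Each arm was sampled at 0, 8, 24 and 48 h, which gives 8 groups. Each group held 3 libraries that the series describes as biological triplicates, and the libraries summed to between 46613589 and 77964234 estimated counts. The 0 h libraries of the TGFβ arm had no time with TGFβ1. The arms were compared directly at each time, and the difference at 0 h was subtracted from that at 8 h in a further contrast.

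Entry into mitosis is driven by the kinase CDK1 bound to cyclin B, and exit by the anaphase-promoting complex (APC/C), a ubiquitin ligase that marks cyclin B and securin for destruction. Between these events the kinetochores bind chromosomes to the spindle, and a checkpoint delays anaphase until each chromosome is attached. Most genes of this machinery are transcribed in G2 and mitosis, when MYBL2 and FOXM1 activate them, and are held back in G1 and quiescent cells by the DREAM complex, which binds a promoter element named CHR (cell cycle genes homology region). TGFβ, a cytokine of the SMAD pathway, is known for halting many epithelial cells in G1, and tumour cells often respond in other ways.

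The samples matched their labels in 2 genes that TGFβ is known to induce. PMEPA1, a feedback inhibitor of TGFβ signalling, lay between 469 and 486 TPM on average in TGFβ-treated cells at 8, 24 and 48 h and was 4.49 ± 0.04 (adjusted p = 5.2e-25) higher on the log2 scale at 24 h (limma). SMAD7, another inhibitor of the pathway, was 2.37 ± 0.06 (adjusted p = 2.8e-18) higher at 24 h (limma). Of 7 squamous epithelial markers, KRT5, KRT14, KRT6A and DSG3 did not exceed 0.1 TPM in any library, whereas TP63 reached 37.5, PKP1 58.5 and SOX2 8.17 TPM, so that the keratins that define squamous cells were at or near 0. The 5 fibroblast markers summed to 196-306 TPM per library in the untreated groups, to 187-271 TPM in the TGFβ arm at 0 h, and to 777-2378 TPM in treated cells. Without COL1A1, the 4 others summed to at most 44.7 TPM, reached in untreated cells at 48 h. The part of these markers in the results was not tested. The 3 endothelial, 4 leukocyte and 3 lung adenocarcinoma markers summed to at most 4.54, 4.22 and 1.82 TPM in a library. The deposited files carry 4 library codes, whose meaning is not given in the sources used here. Within an arm, the 0 and 8 h libraries share a code, and the 24 and 48 h libraries share another. The 0 h libraries of the arms differ in code but not in time with TGFβ1, so that the 0 h comparison measures the codes of the 0 and 8 h libraries. At 24 and 48 h code and treatment cannot be told apart between the arms, and neither can code and time from 0 to 48 h within an arm.

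The mitotic genes fell with time in both arms, whether or not TGFβ1 was added. Their TPM values, which are scaled for transcript length and library size, summed to 4278, 4714 and 4373 in the untreated libraries at 0 h, to 3392, 3364 and 3309.6 at 8 h, to 2911, 3014 and 2750.2 at 24 h, and to 1069.6, 1072 and 1096 at 48 h. Across the TGFβ arm the sums were 4178, 4903 and 4336 at 0 h, 2810.3, 2750.3 and 2815 at 8 h, 2290.1, 2568 and 2266 at 24 h, and 1141, 1169 and 1267 at 48 h. The sums of the arms overlapped at 0 h, were lower in every TGFβ library than in every untreated library at 8 and 24 h, and were higher in every TGFβ library at 48 h. Replicate 2 had the highest sum at 0 h and at 24 h in both arms. In bulk RNA, fewer cells in G2 and mitosis and less of these transcripts per cell cannot be told apart.

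**Figure D1:**
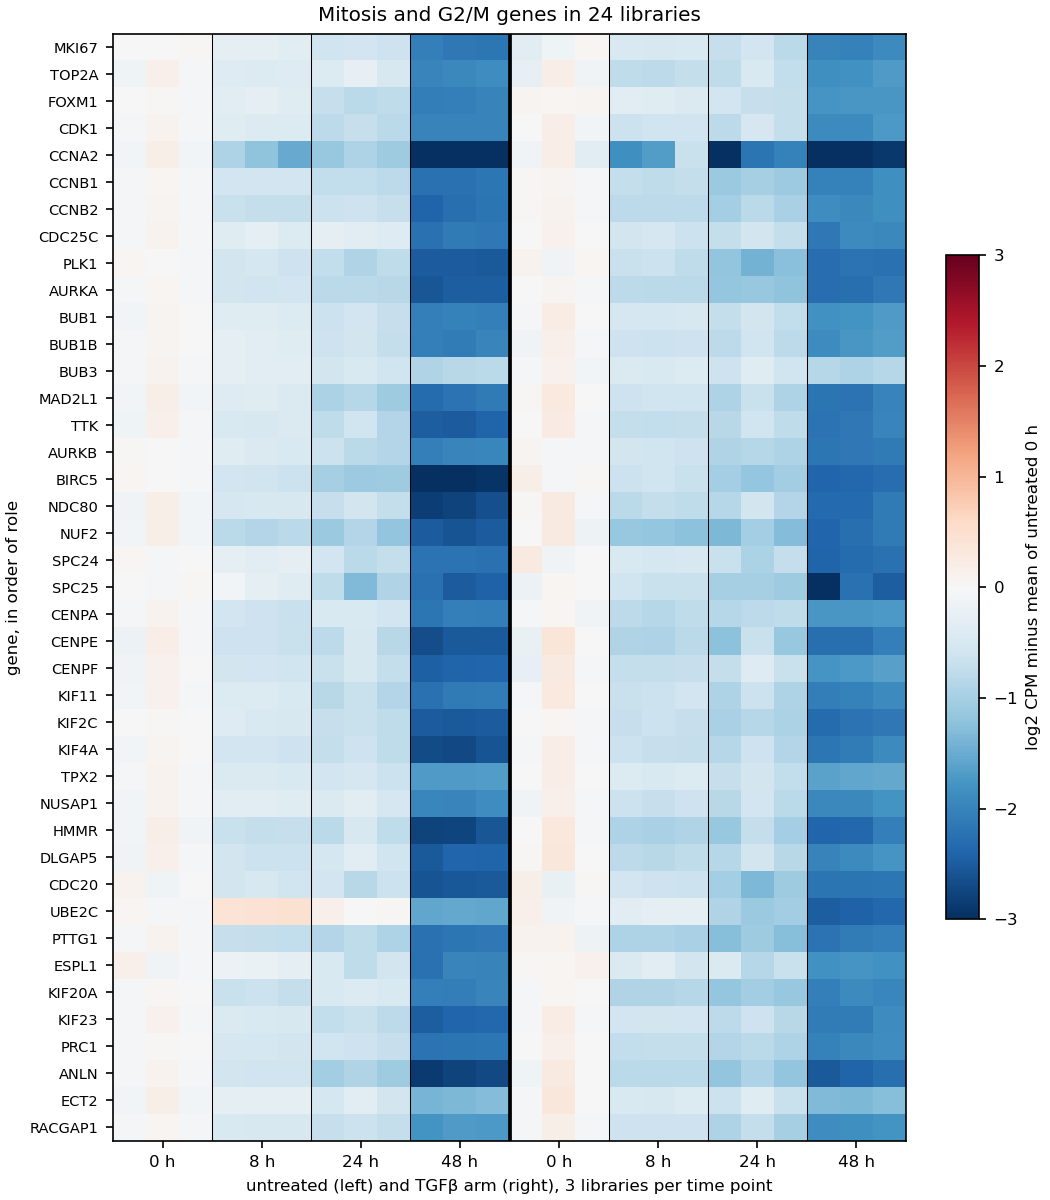
Each row is 1 of the 41 genes in order of role and each column 1 of the 24 libraries; colour gives log2 CPM (TMM-scaled) minus the mean of the untreated 0 h libraries, with blue for lower values, and the scale stops at -3. The columns darken from 0 to 48 h in both arms, with UBE2C above its starting level in the untreated libraries at 8 h, BUB3 pale throughout, and CCNA2 past the end of the scale in several libraries.

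Calls were made with limma voom at an adjusted p below 0.01 over all tested genes. In untreated cells 41 of 41 mitotic genes were lower at 48 h than at 24 h, with a median log2 change of -1.56 (2.94-fold), against 13.6% of all tested genes. From 0 to 8 h in untreated cells, 37 of 41 fell and 1, UBE2C, rose (all tested genes, 12.7% lower and 13.2% higher); the median was -0.46. In the TGFβ arm all 41 fell from 0 to 8 h, with a median of -0.70 (all tested genes, 16.3% lower), and 40 of 41 fell from 24 to 48 h, with a median of -1.14 (all tested genes, 13.4% lower). From 0 to 48 h all 41 fell in each arm. The median was -2.22 in untreated cells (4.66-fold), with 27.1% of all tested genes lower. It was -2.07 in the TGFβ arm (4.20-fold), with 28.1% of all tested genes lower. The steps from 0 to 8 h and from 24 to 48 h lie within 1 library code, and the change from 0 to 48 h does not. BUB3, named after its values were seen, changed least over 48 h, by -0.84 ± 0.06 (adjusted p = 1.1e-10) in untreated cells and -0.88 ± 0.06 (adjusted p = 5.6e-11) in the TGFβ arm (log2, limma).

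The mitotic genes share promoter features that the list was not built on. Windows of 300 bases, from 250 before to 50 after an annotated start, were taken from RefSeq (GRCh38.p14) for 33 of the 41 genes, which have 40 annotated starts. A CHR hexamer (TTTGAA or TTCGAA, on either strand) was present for 25 of these 33 genes (75.8%), against 5336 of 27305 genes (19.5%) with a window in the same table. By start, 70.0% of the windows of mitotic genes and 16.4% of all windows held one. The hexamer began within 70 bases before to 30 bases after the start in 22 of the 33 genes (66.7%), against 6.4% of all genes. CCAAT, on either strand the core of the site of the factor NF-Y, was present for 27 of 33 genes (81.8%; all genes, 39.7%), and both motifs stood in the same window for 21 of 33 (63.6%; all genes, 7.8%). Motifs of the E2F type (TTTGGCGC, TTTCGCGC or TTTCCCGC, on either strand) were present for 3 of 33 (9.1%; all genes, 3.3%). Of 46 G1/S and DNA replication genes, 40 had a window, of which 3 of 40 (7.5%) held a CHR hexamer and 22 of 40 (55.0%) an E2F-type motif. Of 72 other mitotic genes, 58 had a window and 43 of these (74.1%) held a CHR hexamer. These matches describe letters in the reference sequence, not bound sites.

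The 120 bases before the start are printed for 6 genes that recur in the results, from RefSeq (GRCh38.p14), in lower case with CHR hexamers and CCAAT in capitals, the latter reading ATTGG when on the other strand. The first 4 hold both motifs, and the last 2, CCNB1 and KIF20A, hold CCAAT and neither of the 2 CHR hexamers searched. Other forms of the element were not searched for, so that a gene without a hexamer is not shown to lack the element. In MKI67 a CHR hexamer and ATTGG overlap in 1 run of capitals. In GENCODE release 44, at most 20 of the printed bases lie in an exon (CCNB2, 15 in CCNB1, 0 in the other 4).
CCNB2 (chr15:59105026-59105145, plus strand): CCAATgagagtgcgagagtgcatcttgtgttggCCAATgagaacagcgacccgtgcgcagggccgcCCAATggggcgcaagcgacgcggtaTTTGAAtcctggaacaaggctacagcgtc
CDC20 (chr1:43358861-43358980, plus strand): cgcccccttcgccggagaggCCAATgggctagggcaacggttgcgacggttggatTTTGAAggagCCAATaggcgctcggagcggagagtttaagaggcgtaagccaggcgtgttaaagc
KIF4A (chrX:70289984-70290103, plus strand): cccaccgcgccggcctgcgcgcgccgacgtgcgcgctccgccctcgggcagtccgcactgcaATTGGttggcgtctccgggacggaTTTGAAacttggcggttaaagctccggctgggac
MKI67 (chr10:128126424-128126543, minus strand): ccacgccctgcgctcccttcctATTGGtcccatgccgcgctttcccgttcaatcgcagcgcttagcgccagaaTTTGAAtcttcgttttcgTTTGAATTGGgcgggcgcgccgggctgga
CCNB1 (chr5:69167030-69167149, plus strand): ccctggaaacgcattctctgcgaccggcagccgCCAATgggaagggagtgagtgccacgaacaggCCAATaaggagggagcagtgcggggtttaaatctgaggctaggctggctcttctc
KIF20A (chr5:138178992-138179111, plus strand): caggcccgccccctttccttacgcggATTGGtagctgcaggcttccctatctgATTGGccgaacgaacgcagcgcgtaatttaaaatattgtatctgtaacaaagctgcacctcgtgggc

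**Figure D2:**
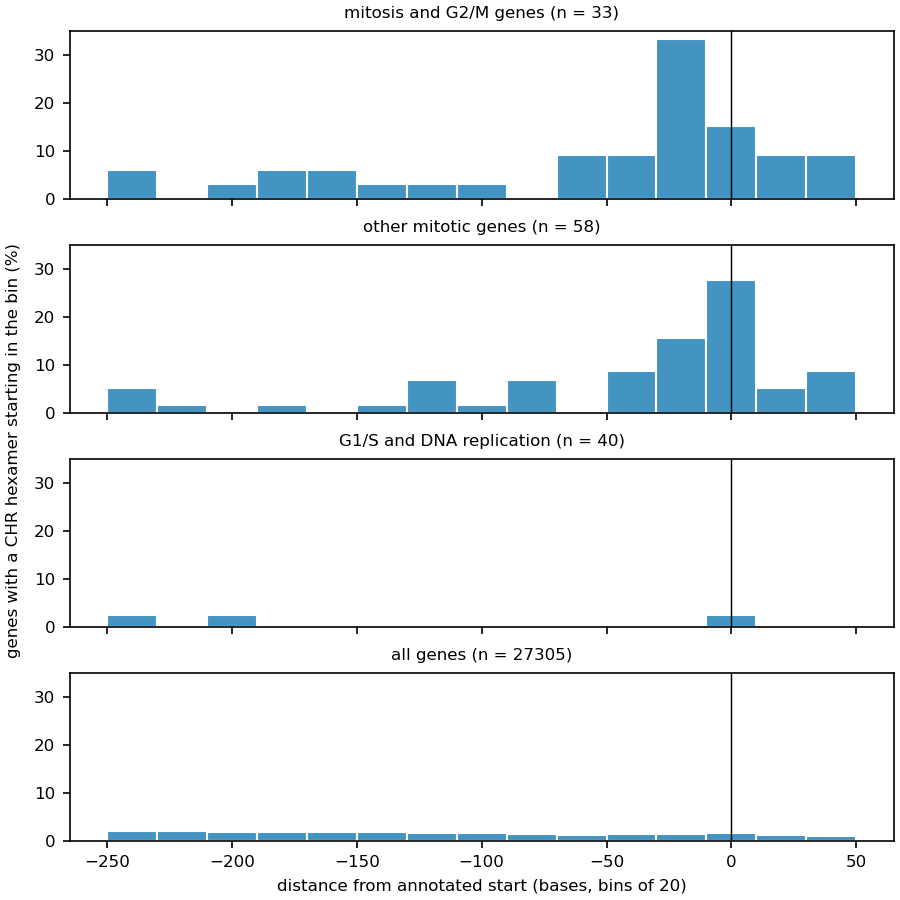
Bars give the percentage of genes with a CHR hexamer beginning in each bin of 20 bases, by distance from the annotated start, for 33 mitosis and G2/M genes, 58 other mitotic genes, 40 G1/S and DNA replication genes and 27305 genes in all. In mitosis and G2/M genes the highest bar, 33.3% (11 genes), lies 30 to 10 bases before the start, and no bar over all genes exceeds 2.11%.

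Genes with and without a CHR hexamer were both found among those that differed between the arms. At 24 h, 7 of the 25 genes with a hexamer and 5 of the 8 without were lower in TGFβ-treated cells, with median log2 differences of -0.10 and -0.32, against 13.8% of all tested genes called lower. The 5 include CCNA2, whose value depends on whether a further transcript of the same length, which has no gene in the annotation, is added. With that transcript added, the difference of CCNA2 was 0.007 at 24 h (adjusted p = 0.95) and 0.595 at 48 h (adjusted p = 8.8e-07, limma). At 48 h, 13 of 25 and 2 of 8 passed the threshold in either direction, with medians of 0.28 and 0.16. Of all tested genes, 16.1% were called higher and 16.4% lower at that time. From 24 to 48 h in untreated cells all 25 and all 8 fell (all tested genes, 13.6%), by medians of 1.56 on the log2 scale in both sets. These are counts in sets of unequal size and the difference between the sets was not tested.

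The decline took a different course in the 2 arms, and the direction of the difference between them was not the same at each time. At 0 h, 0% of all tested genes and none of the 41 passed the threshold in limma voom. No mitotic gene and 800 genes in all had an unadjusted p below 0.05. edgeR called 0 genes and DESeq2 8 genes at 0 h, none of them among the 41. At 8 h, 10 of the 41 were lower in TGFβ-treated cells and none was higher, with a median log2 difference of -0.19 (1.14-fold). Of all tested genes, 7.26% were lower and 9.12% were higher. At 24 h, 14 were lower and none was higher, with a median of -0.12 (1.09-fold). Of all tested genes, 13.8% were lower and 15.4% were higher. At 48 h, 19 were higher and 1, UBE2C, was lower, with a median of 0.27 (1.20-fold). Of all tested genes, 16.1% were higher and 16.4% were lower. The 14 at 24 h include CCNA2, whose value depends on whether a transcript of the same length, which has no gene in the annotation, is added. Of the 40 other genes 13 were lower.

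Between 24 and 48 h the difference between the arms moved upward. Errors after ± are standard errors of log2 differences throughout, unless SD is given. The difference at 48 h minus that at 24 h passed the threshold in 17 of 41 genes, all of them upward, with a median of 0.42, whereas 3.50% of all tested genes were called in this direction. The 2 time points share a library code within each arm, so that an offset of the codes would cancel in this contrast. The difference at 8 h minus that at 0 h, which likewise stays within the codes, passed in 3 of 41 genes (UBE2C, AURKA and KIF2C), all downward, with a median of -0.24 and 2.84% of all tested genes called in this direction. At 8 h the count was 33 when the fit held only the 8 h libraries, and 28 when replicate 2 at 0 and 24 h was left out in both arms. It was 1 when the libraries were scaled to 4 qRT-PCR reference genes. It was 5 without replicate 1 of untreated cells at 8 h, and 5 to 6 without replicate 2 of untreated cells or any 1 of the 3 TGFβ libraries at 8 h. At 24 h the count fell to 5 (all lower) with only the 24 h libraries, and scaling to the reference genes turned it to 12 higher and 3 lower. That scaling moved the median of all tested genes to 0.335 at 24 h and 0.336 at 48 h, from -0.015 and -0.013. GAPDH, which is among the reference genes, was lower in TGFβ-treated cells at 24 h with TMM scaling (-0.38 ± 0.07, adjusted p = 7.6e-05, limma). Which of the 2 scalings is nearer to the RNA content of the cells was not tested. At 48 h the count was 13 without replicate 3 of TGFβ-treated cells (12 higher and 1 lower), 35 with the reference genes (34 higher and 1 lower), and 13 with library totals (11 higher and 2 lower). Among single genes, CCNB1, PLK1, BUB1 and CDC20 at 48 h did not pass with library totals, AURKB at 8 h did not pass in edgeR, and TOP2A at 8 h did not pass on log2 TPM.

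**Figure D3:**
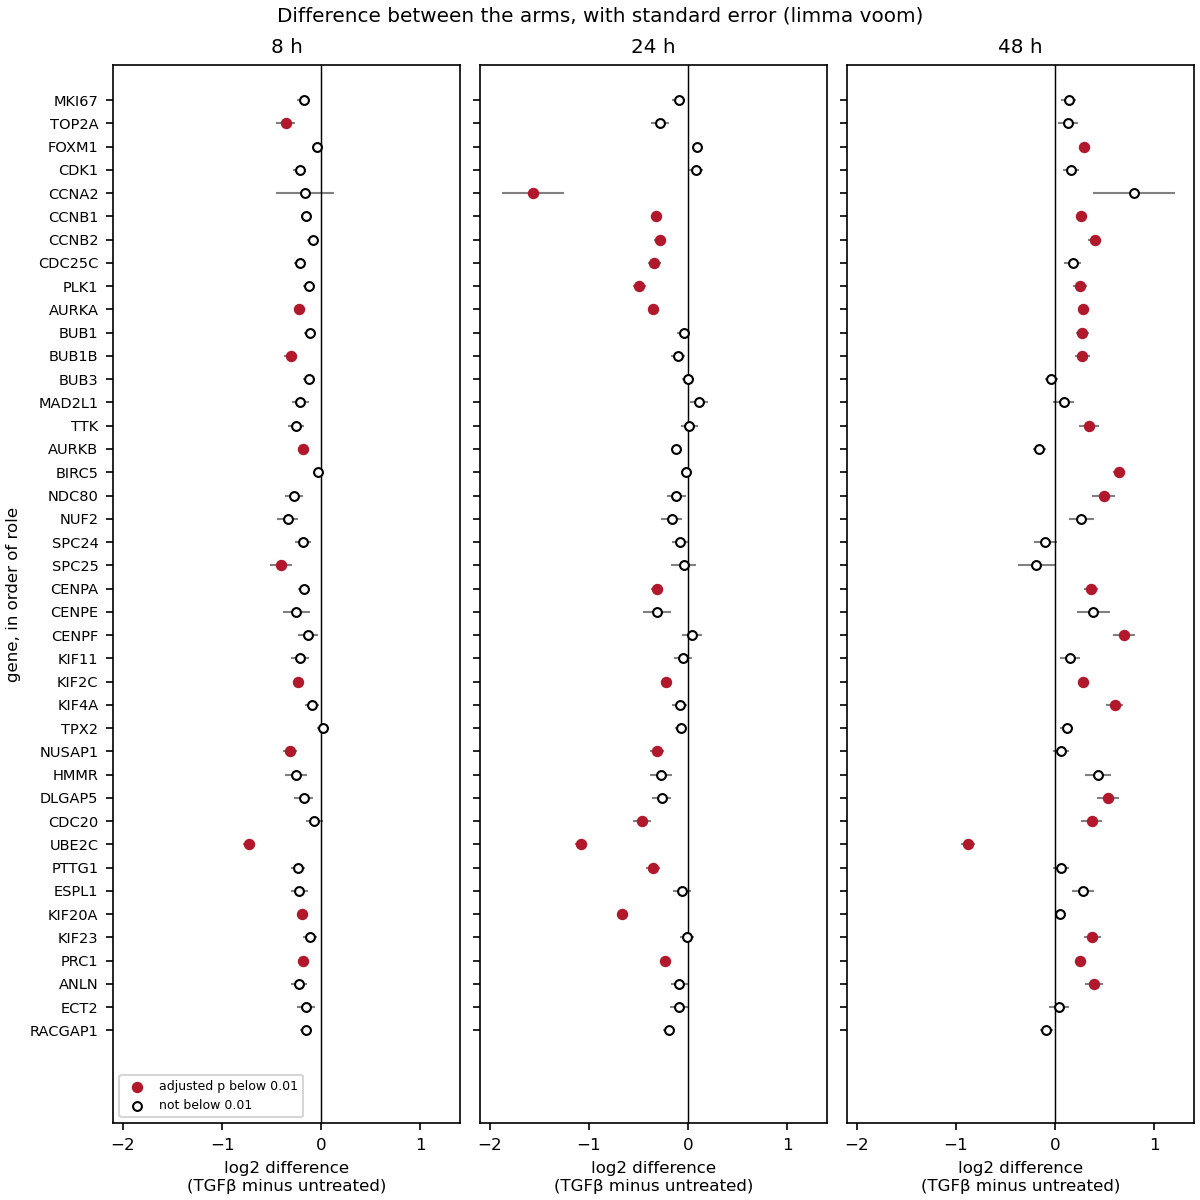
Points give the log2 difference between TGFβ-treated and untreated cells for each of the 41 genes, in order of role, with the standard error as a bar; filled points had an adjusted p below 0.01 in limma voom with 3 libraries per group. At 8 h 10 points are filled and at 24 h 14, all left of 0; at 48 h 19 are filled right of 0 and UBE2C alone left of it, at -0.87.

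UBE2C, the ubiquitin-conjugating enzyme that serves the APC/C, stood apart from the other 40 genes. It stood at 217, 211 and 209 at 0 h, 286, 291 and 295 at 8 h, 231, 216 and 213 at 24 h and 75.97, 75.5 and 73.98 at 48 h in untreated cells (TPM). In the TGFβ arm it stood at 219, 197 and 200.4 at 0 h, 169, 169 and 171 at 8 h, 111, 98.4 and 101 at 24 h and 39.01, 40.3 and 42.8 at 48 h (TPM). The arms overlapped at 0 h and were apart at each later time, with every TGFβ library below every untreated library. In untreated cells UBE2C rose by 0.44 ± 0.06 (adjusted p = 3.6e-06) on the log2 scale from 0 to 8 h, when no other of the 41 genes rose, while it fell by 0.28 in the TGFβ arm (adjusted p = 4.8e-04, limma). The difference between the arms was -0.73 ± 0.06 (adjusted p = 2.4e-09) at 8 h, -1.08 ± 0.06 (adjusted p = 4.1e-12) at 24 h and -0.87 ± 0.07 (adjusted p = 1.3e-09) at 48 h (log2, limma). It differed between 8 and 0 h (-0.72 ± 0.08, adjusted p = 1.4e-06) but not detectably between 48 and 24 h (0.20 ± 0.09, adjusted p = 0.15, limma). UBE2C had 2 main transcripts in the tables, and kallisto divides shared reads between them by estimate. UBE2C-204 stood at 193, 201 and 197 TPM in untreated cells at 8 h and at 118, 120.2 and 117 TPM in TGFβ-treated cells, and UBE2C-205 at 77.1, 74.1 and 81.4 against 39.2, 39.4 and 39.5 TPM. At 0 h UBE2C-205 stood at 37.4, 38.1 and 39.1 TPM in untreated libraries, below its level at 8 h there, and at 36.5, 38.3 and 31.1 in the TGFβ arm, close to the values at 8 h. At 8, 24 and 48 h both transcripts were lower in every TGFβ-treated library than in every untreated library.

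The other genes of the APC/C and its targets moved in another way. CDC20 activates the APC/C at anaphase onset. It was measured at 229, 207 and 225 at 0 h, 154, 164 and 151 at 8 h, 151, 133 and 143 at 24 h and 41.7, 41.3 and 41.4 at 48 h in untreated cells (TPM). Across the TGFβ arm it was measured at 230.5, 196 and 219.5 at 0 h, 148, 143 and 144 at 8 h, 109, 88.6 and 101 at 24 h and 49.8, 47.9 and 53.3 at 48 h (TPM). TGFβ libraries were all lower at 8 and 24 h and all higher at 48 h, and the log2 difference was -0.47 ± 0.09 (adjusted p = 2.9e-04) at 24 h and 0.37 ± 0.10 (adjusted p = 0.0056) at 48 h (limma). Its change between these times, 0.84 ± 0.14 (adjusted p = 2.0e-04), was the highest of the 40 genes other than CCNA2 (limma). PTTG1 (securin), which holds separase inactive until anaphase, was lower at 24 h (-0.35 ± 0.07, adjusted p = 3.8e-04) and not detectably different at 48 h (0.06, adjusted p = 0.6, limma). ESPL1, separase itself, passed at none of the 3 times, with differences of -0.22, -0.06 and 0.28 at 8, 24 and 48 h.

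Of CDK1, its cyclins and its phosphatase, the B-type cyclins were lower in TGFβ-treated cells at 24 h and higher at 48 h. CCNB1 (cyclin B1) activates CDK1 at mitotic entry. Untreated libraries held CCNB1 at 299, 341 and 312 at 0 h, 220.4, 229.6 and 219.9 at 8 h, 199.9, 202 and 187 at 24 h and 73.2, 70.3 and 72.1 at 48 h (TPM). TGFβ-arm libraries held CCNB1 at 315, 357 and 315 at 0 h, 197, 191 and 198 at 8 h, 146, 171 and 148 at 24 h and 80.7, 76.3 and 96.8 at 48 h (TPM). The TGFβ libraries lay below the untreated range at 8 and 24 h and above it at 48 h. The difference passed at 24 h (-0.32 ± 0.05, adjusted p = 1.7e-05) and at 48 h (0.27 ± 0.05, adjusted p = 3.1e-04) but not at 8 h (-0.16 ± 0.05, adjusted p = 0.019, limma). At 24 h it was 0.03 with the libraries scaled to the reference genes. CCNB2 (cyclin B2) moved in the same directions, at -0.29 and 0.40 (adjusted p = 3.7e-04 and 3.2e-05, limma). CDC25C, the phosphatase that activates CDK1, was lower at 24 h (-0.34 ± 0.06, adjusted p = 1.8e-04) and did not pass at 48 h (0.18, adjusted p = 0.1, limma).

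CDK1 itself passed at no time between the arms. It was 100.1, 114 and 104 at 0 h, 84.8, 81.7 and 85.1 at 8 h, 63.4, 68.3 and 61.4 at 24 h and 28.4, 28.3 and 27.5 at 48 h in untreated cells (TPM). The TGFβ arm gave 97.3, 122 and 99.4 at 0 h, 68.5, 67.3 and 69.6 at 8 h, 60.6, 76.5 and 63.9 at 24 h and 29.3, 29.2 and 33.4 at 48 h (TPM). The log2 differences were -0.22, 0.08 and 0.16 at 8, 24 and 48 h (adjusted p = 0.026, 0.38 and 0.11, limma).

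CCNA2 (cyclin A2) requires a reservation. As summed here it stood at 75.8, 92.4 and 77.4 at 0 h, 44.1, 36.6 and 29.6 at 8 h, 37.97, 44.7 and 39.9 at 24 h and 4.66, 4.64 and 4.87 at 48 h in untreated cells (TPM). The TGFβ arm stood at 71.2, 95.04 and 64.4 at 0 h, 22.7, 25.2 and 51.03 at 8 h, 6.70, 18.4 and 19.9 at 24 h and 6.63, 6.99 and 11.6 at 48 h (TPM). Replicates spread widely, with a coefficient of variation within groups of 23.9%, against 2.1% to 11.8% for the other members. Its 1 transcript in the annotation is 2797 bases long. Of transcripts of exactly that length without a gene in the annotation, 1 had a mean of at least 20 estimated counts, with 1772 on average against 3590. This transcript was linked to CCNA2 by length, and the sequences and loci of the 2 were not compared. Together the 2 had a coefficient of variation of 5.9%. By itself CCNA2 had the lowest difference of all 41 genes at 24 h (-1.56 ± 0.32, adjusted p = 4.2e-04) and the highest at 48 h (0.79 ± 0.41, adjusted p = 0.13, limma). Summed with the other transcript, which was done after seeing the data, the differences were 0.01 ± 0.06 at 24 h (adjusted p = 0.95) and 0.59 ± 0.07 at 48 h (adjusted p = 8.8e-07, limma). The sum stood at 50.2 ± 2.18 TPM in untreated and 49.5 ± 5.0 TPM in TGFβ-treated cells at 24 h, and at 14.3 ± 0.57 and 21.3 ± 1.68 TPM at 48 h (SD, n = 3). With it, 13 members were lower at 24 h, 20 were higher and 1 lower at 48 h, and all 41 fell from 24 to 48 h in the TGFβ arm.

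PLK1 and AURKA, kinases of the centrosome and spindle, took the course of the B-type cyclins. PLK1 stood at 136, 138 and 129 at 0 h, 97.3, 97.3 and 90.6 at 8 h, 81.1, 78.05 and 79.98 at 24 h and 25.2, 26.4 and 25.9 at 48 h in untreated cells (TPM). TGFβ-arm libraries of PLK1 stood at 135, 138 and 137 at 0 h, 86.8, 86.1 and 79.5 at 8 h, 59.3, 53.3 and 55.5 at 24 h and 28.8, 30.9 and 30.3 at 48 h (TPM). The ranges were apart at 8, 24 and 48 h, and the log2 difference was -0.49 ± 0.06 (adjusted p = 1.4e-06) at 24 h and 0.25 ± 0.07 (adjusted p = 0.0052) at 48 h (limma). AURKA was lower at 8 h (-0.23 ± 0.04, adjusted p = 1.9e-04) and 24 h (-0.35 ± 0.04, adjusted p = 6.7e-07) and higher at 48 h (0.28 ± 0.05, adjusted p = 7.4e-05, limma). In all, 8 genes were lower at 24 h and higher at 48 h: AURKA, CCNB1, CCNB2, CDC20, CENPA, KIF2C, PLK1 and PRC1. Of all tested genes, 13.8% were called lower at 24 h and 16.1% higher at 48 h. The share of all tested genes with both calls was not counted, so that the 8 have no background to be set against. The calls at 24 h also depended on the scaling, as given above for the reference genes.

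**Figure D4:**
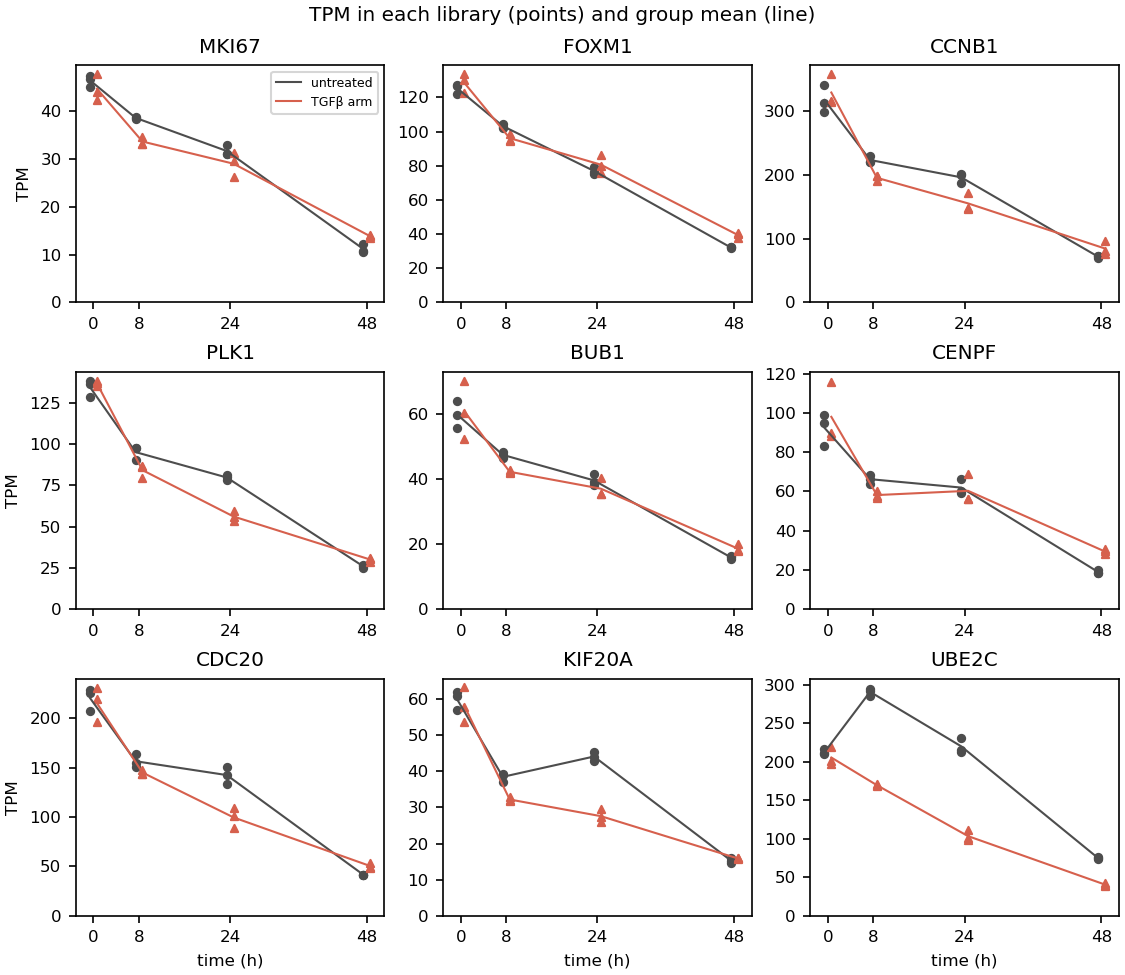
Points are single libraries, 3 per group, and lines join group means of TPM at 0, 8, 24 and 48 h in untreated cells (circles) and the TGFβ arm (triangles) for 9 genes, each axis starting at 0. In CCNB1, PLK1 and CDC20 the TGFβ line lies below the untreated line at 24 h and above it at 48 h, and in UBE2C it lies below at 8, 24 and 48 h.

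FOXM1, the transcription factor that activates many of these genes, was higher in TGFβ-treated cells at 48 h. Untreated cells held 127, 127 and 122 at 0 h, 103, 105 and 102 at 8 h, 79.2, 76.3 and 75.3 at 24 h and 32.6, 31.6 and 32.3 at 48 h (TPM). TGFβ-arm libraries held 122, 130.00 and 134 at 0 h, 98.6, 95.2 and 94.5 at 8 h, 86.4, 79.5 and 75.9 at 24 h and 37.9, 40.1 and 40.7 at 48 h (TPM). At 48 h the lowest TGFβ library lay above the highest untreated one, with a log2 difference of 0.29 ± 0.04 (adjusted p = 8.4e-06) in limma. At 24 h it was 0.09 ± 0.04 (adjusted p = 0.072) in limma. FOXM1 shares its locus with RHNO1 on the opposite strand, at 30.2 to 53.9 TPM, and the strand of the libraries is not stated.

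Of the proliferation marker MKI67 and the DNA topoisomerase TOP2A, MKI67 passed at no time and TOP2A at 8 h alone. MKI67 was at 45.2, 46.8 and 47.5 at 0 h, 38.7, 38.4 and 38.9 at 8 h, 32.96, 31.1 and 31.1 at 24 h and 12.2, 10.7 and 10.5 at 48 h in untreated cells (TPM). It was at 42.5, 43.97 and 47.8 at 0 h, 33.2, 33.3 and 34.6 at 8 h, 29.5, 31.3 and 26.3 at 24 h and 13.9, 14.1 and 13.5 at 48 h in the TGFβ arm (TPM). Its difference did not pass at 8, 24 or 48 h (-0.18, -0.10 and 0.14; adjusted p = 0.057, 0.29 and 0.14, limma), although the TPM ranges were apart at 8 and 48 h. TOP2A, which untangles DNA before chromosomes part, was at 171, 211 and 185 at 0 h, 148, 147 and 147 at 8 h, 145, 168 and 138 at 24 h and 51.8, 51.5 and 54.4 at 48 h in untreated cells (TPM). TGFβ-arm values of TOP2A were 149.97, 219 and 173 at 0 h, 109.8, 108 and 114 at 8 h, 110.4, 144 and 112 at 24 h and 54.3, 55.3 and 61.04 at 48 h (TPM). All 3 TGFβ libraries lay below the untreated ones at 8 h, with a log2 difference of -0.36 ± 0.09 (adjusted p = 0.0067), and the arms overlapped at 24 and 48 h (limma).

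The 5 genes of the spindle assembly checkpoint did not pass at 24 h, with differences from -0.10 to 0.11, and 3 were higher at 48 h. Of all tested genes, 13.8% were called lower and 15.4% higher at 24 h, and 16.1% higher at 48 h. BUB1, a checkpoint kinase at kinetochores, was at 55.8, 63.9 and 59.6 at 0 h, 48.3, 47.5 and 46.5 at 8 h, 39.2, 41.4 and 38.1 at 24 h and 16.05, 16.3 and 15.5 at 48 h in untreated cells (TPM). BUB1 in the TGFβ arm was at 52.2, 70.2 and 60.4 at 0 h, 42.2, 41.7 and 42.7 at 8 h, 35.4, 40.2 and 35.4 at 24 h and 17.9, 18.1 and 19.98 at 48 h (TPM). The arms were apart at 8 h, overlapped at 24 h and were apart at 48 h, when TGFβ libraries were higher by 0.28 ± 0.07 (adjusted p = 0.0027) on the log2 scale (limma). BUB1B, which encodes the checkpoint protein BUBR1, was lower at 8 h (-0.31 ± 0.07, adjusted p = 0.0012) and higher at 48 h (0.28 ± 0.07, adjusted p = 0.0041), and TTK, the kinase that starts checkpoint signalling, was higher at 48 h (0.34 ± 0.10, adjusted p = 0.0079, limma). MAD2L1, the checkpoint protein that binds CDC20, had the highest difference of the 41 at 24 h without passing (0.11 ± 0.09, adjusted p = 0.38, limma). Its untreated libraries stood at 80.5, 103 and 82.2 at 0 h, 67.4, 68.5 and 66.4 at 8 h, 48.2, 50.2 and 40.4 at 24 h and 17.3, 19.7 and 20.8 at 48 h (TPM). The TGFβ libraries of MAD2L1 stood at 89.4, 118 and 89.00 at 0 h, 57.4, 58.1 and 56.6 at 8 h, 44.7, 58.8 and 47.02 at 24 h and 22.5, 22.3 and 24.4 at 48 h (TPM). In TPM they lay below the untreated range at 8 h, overlapped it at 24 h and lay above it at 48 h. On TMM-scaled log2 values the arms overlapped at 48 h. The log2 difference there was 0.09 ± 0.10 and did not pass (adjusted p = 0.54, limma). A retained-intron transcript held 27.1% of the MAD2L1 TPM in TGFβ-treated cells at 48 h and 9.4% in untreated cells. Its part in the TPM difference was not tested. BUB3, a partner of BUB1 and BUBR1 that also acts in interphase, passed at no time (adjusted p from 0.17 at 8 h to 0.99 at 24 h, limma).

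In the chromosomal passenger complex, which corrects wrong attachments, the kinase AURKB and its partner BIRC5 (survivin) passed at different times. AURKB was at 87.3, 90.3 and 87.99 at 0 h, 71.8, 67.5 and 67.2 at 8 h, 57.7, 50.3 and 48.2 at 24 h and 22.5, 24.02 and 25.3 at 48 h in untreated cells (TPM). AURKB in the TGFβ arm was at 86.4, 87.8 and 84.7 at 0 h, 61.5, 57.6 and 55.1 at 8 h, 46.1, 48.4 and 46.2 at 24 h and 21.7, 20.2 and 21.6 at 48 h (TPM). All TGFβ libraries were lower at 8 and at 48 h; the log2 difference passed at 8 h (-0.18 ± 0.05, adjusted p = 0.0098) and not at 48 h (-0.16 ± 0.06, adjusted p = 0.054, limma). BIRC5 did not pass at 8 or 24 h (-0.03 and -0.02) and was 0.64 ± 0.06 (adjusted p = 6.9e-09) higher at 48 h (limma). The difference between these genes was not tested.

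Of 7 centromere and kinetochore genes, 1 was lower at 8 h (SPC25), 1 was lower at 24 h (CENPA) and 3 were higher at 48 h (CENPA, CENPF and NDC80). Of all tested genes, 7.26% were called lower at 8 h, 13.8% lower at 24 h and 16.1% higher at 48 h. The share at 24 h, 14.3% of the 7, was near that of all tested genes. CENPF, a large kinetochore protein that builds up in G2, was at 83.3, 98.8 and 95.1 at 0 h, 63.8, 68.5 and 66.4 at 8 h, 60.5, 66.3 and 59.1 at 24 h and 18.5, 18.6 and 19.9 at 48 h in untreated cells (TPM). TGFβ-arm libraries held CENPF at 88.3, 116 and 89.8 at 0 h, 57.9, 56.5 and 60.02 at 8 h, 56.00, 68.96 and 55.9 at 24 h and 28.1, 29.6 and 30.5 at 48 h (TPM). At 48 h the TGFβ libraries were well above the untreated ones, by 0.70 ± 0.11 (adjusted p = 1.7e-05), and at 24 h the arms overlapped (0.04 ± 0.10, adjusted p = 0.8, limma). CENPA, the histone that marks centromeres, was -0.31 ± 0.06 (adjusted p = 1.3e-04) at 24 h and 0.36 ± 0.07 (adjusted p = 3.2e-04) at 48 h (limma). Of the 4 subunits of the NDC80 complex, which holds microtubules, 1 passed at 48 h. NDC80 was 0.49 ± 0.11 (adjusted p = 0.0014), NUF2 0.27 (adjusted p = 0.1), SPC24 -0.10 (adjusted p = 0.54) and SPC25 -0.19 (adjusted p = 0.45, limma). The differences between the subunits were not tested. SPC24, with the largest fall of the 41 from 24 to 48 h in the TGFβ arm (-1.55 ± 0.10, adjusted p = 2.4e-10, limma), was at 32.2, 28.6 and 29.8 at 0 h, 25.2, 24.9 and 27.1 at 8 h, 20.9, 19.3 and 18.7 at 24 h and 6.45, 7.28 and 6.64 at 48 h in untreated cells (TPM). Its TGFβ-arm values were 32.3, 29.3 and 29.97 at 0 h, 22.7, 20.5 and 21.98 at 8 h, 18.7, 16.4 and 18.1 at 24 h and 4.69, 5.76 and 6.75 at 48 h (TPM). CENPE, a kinetochore motor, passed at none of the 3 times, at -0.25, -0.32 and 0.39.

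Of 7 spindle motors and microtubule proteins, 2 were lower at 8 h (KIF2C and NUSAP1), the same 2 were lower at 24 h, and 3 were higher at 48 h (KIF2C, KIF4A and DLGAP5). The shares of all tested genes were 7.26% lower at 8 h, 13.8% lower at 24 h and 16.1% higher at 48 h. KIF11, the motor that pushes spindle poles apart, was at 36.1, 42.8 and 37.5 at 0 h, 30.2, 30.2 and 29.3 at 8 h, 22.5, 25.6 and 21.6 at 24 h and 8.84, 9.46 and 9.66 at 48 h in untreated cells (TPM). KIF11 in the TGFβ arm was at 34.8, 47.9 and 39.2 at 0 h, 24.2, 24.2 and 26.1 at 8 h, 20.4, 25.6 and 20.1 at 24 h and 9.64, 10.02 and 10.98 at 48 h (TPM). The TGFβ libraries were lower at 8 h and overlapped with the untreated ones at 24 and 48 h, and no difference passed (-0.21, -0.05 and 0.15). KIF2C, which takes microtubules apart, was lower at 8 h (-0.24 ± 0.04, adjusted p = 3.3e-04) and 24 h (-0.23 ± 0.04, adjusted p = 3.6e-04) and higher at 48 h (0.29 ± 0.05, adjusted p = 9.8e-05, limma). KIF4A, a chromosome-bound motor, was 0.60 ± 0.08 (adjusted p = 4.2e-06) and DLGAP5, a spindle protein, 0.54 ± 0.11 (adjusted p = 3.5e-04) higher at 48 h (limma). TPX2, which activates AURKA on the spindle, had the highest difference of the 41 at 8 h and did not pass (0.02 ± 0.06, adjusted p = 0.85, limma). TPX2 stood at 125, 144 and 126 at 0 h, 99.9, 100.3 and 98.4 at 8 h, 89.8, 96.4 and 85.1 at 24 h and 43.6, 42.8 and 43.8 at 48 h in untreated cells (TPM). Values of TPX2 in the TGFβ arm were 124, 152 and 132 at 0 h, 99.04, 94.1 and 98.2 at 8 h, 81.5, 92.5 and 78.2 at 24 h and 45.2, 46.5 and 47.9 at 48 h (TPM). The arms overlapped at 0, 8 and 24 h. HMMR, a microtubule-binding receptor of hyaluronan, passed at none of the 3 times, with 0.43 ± 0.14 (adjusted p = 0.013) at 48 h, but its change from 24 to 48 h did (0.71 ± 0.18, adjusted p = 0.008, limma).

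Of 6 genes of the central spindle and cytokinesis, KIF20A and PRC1 were lower at 8 h and at 24 h, and KIF23, PRC1 and ANLN were higher at 48 h. Shares of all tested genes were 7.26% lower at 8 h, 13.8% lower at 24 h and 16.1% higher at 48 h. KIF20A, a motor of the late mitotic midzone, was at 56.8, 61.9 and 60.7 at 0 h, 38.9, 39.4 and 37.1 at 8 h, 43.99, 45.4 and 42.8 at 24 h and 15.2, 14.7 and 16.1 at 48 h in untreated cells (TPM). It was at 53.6, 63.2 and 57.9 at 0 h, 31.9, 31.8 and 32.8 at 8 h, 27.3, 29.6 and 25.9 at 24 h and 16.1, 16.03 and 15.6 at 48 h in the TGFβ arm (TPM). In TPM it was higher at 24 h than at 8 h in every untreated library, and lower in every TGFβ library. The 8 and 24 h libraries differ in code within each arm, so that code and time cannot be told apart for this step, which was not tested. The difference between the arms was -0.20 ± 0.04 (adjusted p = 0.002) at 8 h, -0.67 ± 0.04 (adjusted p = 8.4e-11) at 24 h and 0.06 ± 0.05 (adjusted p = 0.4) at 48 h, when the arms overlapped (limma). KIF20A overlaps BRD8 on the opposite strand, at 50.01 to 97.5 TPM. PRC1, which bundles midzone microtubules, was -0.19, -0.24 and 0.25 at 8, 24 and 48 h (adjusted p = 0.0029, 2.0e-04 and 2.3e-04, limma). KIF23, a midzone motor, and ANLN, a scaffold of the contractile ring, were 0.38 ± 0.08 (adjusted p = 8.1e-04) and 0.40 ± 0.09 (adjusted p = 0.0016) higher at 48 h (limma). ECT2 and RACGAP1, which steer the ring through the GTPase RhoA, passed at none of the 3 times.

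Of the 72 other mitotic genes, 1 was higher and 17 were lower at 8 h (23.6% lower, against 7.26% of all tested genes). At 24 h 9 were higher (12.5%, against 15.4%) and 16 lower (22.2%, against 13.8%). At 48 h 18 were higher (25.0%, against 16.1%) and 4 lower (5.56%, against 16.4%). Their medians at 8, 24 and 48 h were -0.19, -0.07 and 0.17. From 24 to 48 h in untreated cells 70 of 72 fell (97.2%, against 13.6% of all tested genes), with a median of -1.32. The centrosome kinase NEK2 was 0.75 ± 0.08 (adjusted p = 4.8e-08) and the spindle protein TACC3 0.64 ± 0.08 (adjusted p = 2.1e-06) higher at 48 h, and the phosphatase CDC25B was -0.74 ± 0.06 (adjusted p = 5.6e-09) at 24 h (limma). The 46 G1/S and DNA replication genes took another course. At 24 h 31 of them were higher in TGFβ-treated cells (67.4%, against 15.4% of all tested genes) and 1 was lower, with a median of 0.34. At 48 h none was higher and 25 were lower (54.3%, against 16.4%), with a median of -0.35. Between 24 and 48 h the difference between the arms moved downward in 37 of 46 (80.4%, against 5.61% of all tested genes), with a median of -0.66. That of the mitotic genes moved upward in 17 of 41. CDC6, which loads the replicative helicase, went from 0.91 ± 0.05 (adjusted p = 2.0e-12) at 24 h to -0.52 ± 0.05 (adjusted p = 4.5e-08) at 48 h (limma). UHRF1, which copies DNA methylation, was 0.88 ± 0.07 (adjusted p = 4.3e-09) at 24 h, and RRM2, a subunit of ribonucleotide reductase, was -0.89 ± 0.05 (adjusted p = 1.2e-11) at 48 h (limma).

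**Figure D5:**
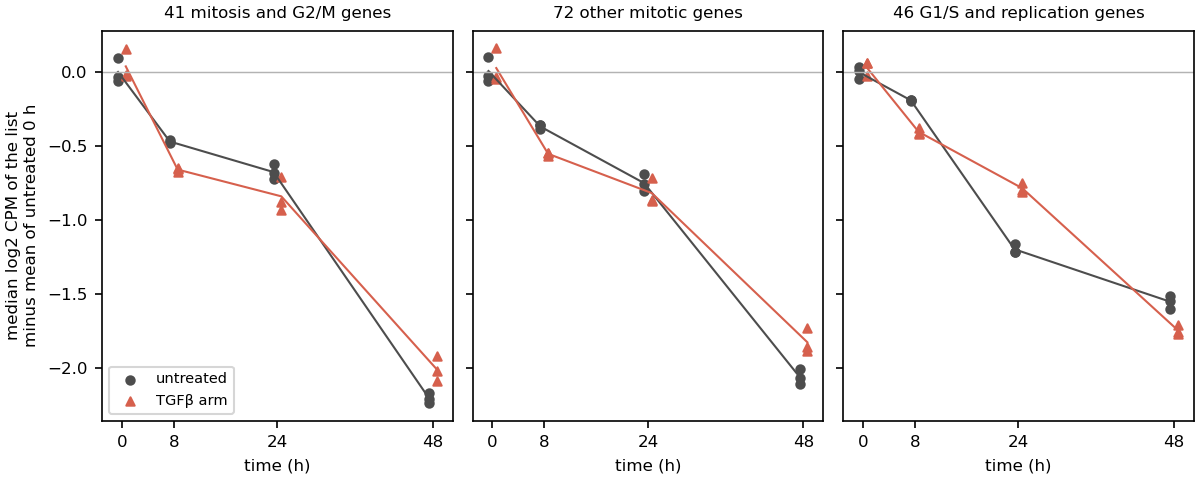
Each point is 1 library and gives the median over a list of log2 CPM (TMM-scaled) minus the mean of the untreated 0 h libraries, by time in h; lines join group means, circles are untreated and triangles the TGFβ arm. For the mitosis and G2/M genes the TGFβ points lie below the untreated ones at 8 h, overlap them at 24 h and lie above them at 48 h (-2.09 to -1.92 against -2.24 to -2.17), and for the G1/S genes the TGFβ points lie above at 24 h and below at 48 h.

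Among regulators of these genes, 19 belong to the DREAM and MuvB complexes and E2F factors. At 8 h 2 of the 19 were higher and 2 lower (10.5% each, against 9.12% and 7.26% of all tested genes). At 24 h 7 were higher (36.8%, against 15.4%) and none was lower. At 48 h 2 were higher (10.5%, against 16.1%) and 4 lower (21.1%, against 16.4%), which is near the shares of all tested genes. E2F7, a repressor of cell cycle genes, was at 39.98, 43.2 and 39.6 at 0 h, 18.4, 17.7 and 17.8 at 8 h, 16.8, 17.4 and 15.6 at 24 h and 20.3, 20.4 and 19.8 at 48 h in untreated cells (TPM). E2F7 in the TGFβ arm was at 31.7, 45.6 and 38.5 at 0 h, 30.9, 29.6 and 30.5 at 8 h, 39.6, 45.3 and 39.3 at 24 h and 39.6, 39.2 and 41.7 at 48 h (TPM). It fell in untreated cells from 0 to 8 h (-1.21 ± 0.06, adjusted p = 9.1e-12, limma), and every TGFβ library lay above every untreated one from 8 h on, with 1.33 ± 0.07 (adjusted p = 4.6e-13) at 24 h and 1.01 ± 0.07 (adjusted p = 3.5e-11) at 48 h (log2, limma). The activator MYBL2 was 0.51 ± 0.08 (adjusted p = 2.3e-05) at 24 h and -0.05 at 48 h, and the activator E2F2 was -0.92 ± 0.12 (adjusted p = 1.2e-06) at 48 h (limma). Of 7 CDK inhibitors, 5 passed the filter; CDKN2A stood at 0 TPM in each of the 24 libraries and CDKN2B at no more than 0.01 TPM. CDKN1A (p21) was at 172, 154 and 164 at 0 h, 63.6, 62.8 and 64.00 at 8 h, 78.3, 71.8 and 80.01 at 24 h and 48.9, 48.7 and 47.5 at 48 h in untreated cells (TPM). CDKN1A in the TGFβ arm was at 159, 139.7 and 161 at 0 h, 82.7, 85.1 and 83.1 at 8 h, 115, 109 and 121 at 24 h and 149, 149 and 137 at 48 h (TPM). It fell in both arms from 0 to 8 h (-1.41 in untreated cells and -0.90 in the TGFβ arm, adjusted p = 3.9e-13 and 1.3e-10, limma). From 24 to 48 h it fell in untreated cells (-0.73) and rose in the TGFβ arm (0.26 ± 0.06, adjusted p = 0.0016, limma), and it was 1.61 ± 0.06 (adjusted p = 7.8e-15) higher there at 48 h (log2, limma). CDKN1B (p27) was -0.63 ± 0.04 (adjusted p = 1.8e-11) and CDKN2C (p18) -0.69 ± 0.07 (adjusted p = 9.9e-08) at 24 h (limma). The part of these regulators in the values of the mitotic genes was not tested.

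Near-identical copies of the mitotic genes, which could share reads with them, were low. KIF4B, PTTG2, PTTG3P, RACGAP1P1, MAD2L1P1 and BUB1P1 did not exceed 0.12 TPM in any library, UBE2CP4 reached 0.18 TPM and CDC20P1 reached 1.16 TPM. CCNB1P1 and RACGAP1P were not found among the genes with a transcript and could not be checked.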

How the data were processed

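Total RNA of 24 SK-MES-1 libraries was sequenced on the Illumina HiSeq 4000. Per the study's methods and the submitters' processing notes, the authors ran kallisto 0.43.0 on GRCh38 transcripts (Ensembl Release 79) and deposited, for each library, the effective length, estimated count and TPM of 173259 transcripts. Replicates were not pooled. For this work, deposited estimated counts and TPM were summed by gene with GENCODE release 44 for 155518 transcripts; 17741 had no gene there and were left out of gene sums, but not of library depth.

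Samples were grouped by the labels' arm and time. Summed estimated counts were rounded and tested with limma 3.58.1 (voom, TMM factors from edgeR 4.0.16) in R 4.3.3, with 1 mean for each of 8 groups, after a filter of at least 10 counts in at least 3 libraries. Two-sided p-values were adjusted by the Benjamini-Hochberg method over 17453 genes, and an adjusted p below 0.01 was called. The p-values rest on the spread between the 3 libraries within a group, pooled over all 8 groups and moderated across genes. They do not measure the spread of the compared groups alone. The series describes the libraries of a group as biological replicates. Depth was 46613589 to 77964234 estimated counts per library (median 54120879), and intervals cover neither differences between cultures made at other times nor errors in dividing reads between transcripts. Medians over a list are described without a test.

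Alternatives were edgeR's quasi-likelihood test, DESeq2 1.42.0, library totals, upper-quartile factors, 4 reference genes as library size, other count filters, limma-trend on log2 TPM with a pseudocount of 1 or of 0.1, counts scaled by effective length, a replicate block, only the libraries compared, and each library left out in turn. Leaving out replicate 2 at 0 and 24 h and adding a transcript to CCNA2 were chosen after seeing the data. The scripts were tested on simulated counts. Promoter windows of 300 bases were taken from RefSeq (GRCh38.p14).

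All 41 members were named by role. Values in every library were given for MKI67, TOP2A, FOXM1, CDK1, CCNB1, PLK1, BUB1, AURKB, CENPF, KIF11, CDC20 and KIF20A, for the members at the extremes of a contrast, and for E2F7 and CDKN1A; up to 3 genes were named from each other list. The members and lists were chosen with earlier results of these data known. Python 3.11.15, pandas 2.3.3 and matplotlib 3.10.9 were used for sums and plots.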

Additional observations from a re-analysis of the deposited data

Results flagged for a closer look

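The effect of TGFβ1 differed between time points in 3 of the 41 genes from 0 to 8 h and in 17 from 24 to 48 h, by limma's test of the difference between the 2 effects (adjusted p below 0.01, 3 libraries per group). Of all tested genes, 5.05% were called upward and 2.84% downward from 0 to 8 h. From 24 to 48 h the shares were 3.50% upward and 5.61% downward. From 0 to 8 h the log2 difference between the arms changed by -0.24 in AURKA, -0.25 in KIF2C and -0.72 in UBE2C.

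From 24 to 48 h the log2 difference between the arms moved up in each of the 17. Among cyclins, CDK1 regulators and kinases the change was 2.36 in CCNA2, 0.58 in CCNB1, 0.69 in CCNB2, 0.52 in CDC25C, 0.74 in PLK1 and 0.63 in AURKA. Among genes of the passenger complex and kinetochore it was 0.66 in BIRC5, 0.61 in NDC80, 0.68 in CENPA and 0.66 in CENPF. Among spindle genes it was 0.52 in KIF2C, 0.69 in KIF4A, 0.71 in HMMR and 0.80 in DLGAP5. In the APC/C activator CDC20 it was 0.84, and among midzone genes 0.72 in KIF20A and 0.49 in PRC1.

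A transcript that has no gene in the annotation, and so stands outside the gene sums, held 1772 estimated counts per library on average; it has the length of the CCNA2 transcript, and the CCNA2 change from 24 to 48 h was 0.59 when both were summed. No group has 4 libraries, so that single libraries were not tested as outliers.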

How the results depend on the processing

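Among the 12 counts of members called, 423 values under alternatives kept their direction and lay within 1.5 times the count first given, 32 lay outside it and 1 turned direction. The 423 include the comparison at 0 h, where no member was called and there was no direction to keep. They also include the comparisons with time, where nearly all members were called, and fits without a library outside the groups compared. The total therefore does not measure how stable the counts between the arms were. The changes listed next all fall on comparisons between the arms. At 8 h (10 members) the count was 22 with library totals, 16 with upper-quartile factors, 1 with the reference genes, 5 with length-scaled counts, 33 with only the libraries compared and 28 without replicate 2 of 0 and 24 h. At 24 h (14 members) it was 15 with the reference genes, of which 12 were higher, and 5 with only the libraries compared. At 48 h (20 members) it was 13 with library totals and 35 with the reference genes. For the difference at 8 h minus that at 0 h (3 members) it was 6 with DESeq2, 1 each with the reference genes, log2(TPM + 1), log2(TPM + 0.1), length-scaled counts and only the libraries compared, and 16 without replicate 2 of 0 and 24 h. For the difference at 48 h minus that at 24 h (17 members) it was 29 without those libraries. The cause of these changes in count was not tested.

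With 1 library left out at a time, counts ranged from 5 to 15 at 8 h, 13 to 18 at 24 h, 13 to 21 at 48 h, 1 to 5 for the difference at 8 h minus that at 0 h and 13 to 25 for that at 48 h minus 24 h. They ranged from 35 to 39 in untreated cells from 0 to 8 h and from 40 to 41 in the TGFβ arm from 24 to 48 h, and stayed at 41 in the other 4 comparisons with time and at 0 between the arms at 0 h. For the difference at 8 h minus that at 0 h, the count was 1 without replicate 1 or 3 of untreated cells at 0 h, replicate 1 or 2 at 8 h, replicate 2 of the TGFβ arm at 0 h or any of its 8 h libraries, and 5 without replicate 3 of the TGFβ arm at 0 h.

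Of single genes, CCNB1 at 24 h turned to 0.03 with the reference genes and CCNA2 at 24 h to 0.007 when summed with the unmatched transcript; 38 further values of named genes kept their direction but no longer passed, and 216 kept both. These include TOP2A at 8 h and CCNB1, PLK1, BUB1 and CDC20 at 48 h. Replicate numbers are shared across arms, and deviations of same-numbered libraries correlated between -0.047 and 0.301. Values over 0.1 were those of replicates 1 and 2 at 0 h (0.203 and 0.296) and at 24 h (0.144 and 0.301). The numbers were not taken as pairs in the main fit, and a replicate effect present at some times only was not modelled. With the replicate number as a block (replicate block), 13 members were called at 8 h, 16 at 24 h and 21 at 48 h, 4 in the difference at 8 h minus that at 0 h, 23 in that at 48 h minus 24 h, 39 in untreated cells from 0 to 8 h, 40 in the TGFβ arm from 24 to 48 h, 41 in the other 4 comparisons with time and 0 at 0 h.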

Other observations

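Among the 41 genes, 13 passed between the arms at none of 8, 24 and 48 h: BUB3, CDK1, CENPE, ECT2, ESPL1, HMMR, KIF11, MAD2L1, MKI67, NUF2, RACGAP1, SPC24 and TPX2. The share of all tested genes that passed at none of these times was not counted. The falls from 0 to 48 h, described without a test between genes, were graded. Apart from CCNA2, they were deepest in untreated cells in BIRC5 (-2.99 on the log2 scale), ANLN (-2.79) and NDC80 (-2.75), and shallowest in BUB3 (-0.84), ECT2 (-1.35) and UBE2C (-1.55). In the TGFβ arm, again apart from CCNA2 (-3.33), SPC25 (-2.55), ANLN (-2.44) and UBE2C (-2.42) fell furthest, so that UBE2C stood near opposite ends of the order in the 2 arms. These genes were picked after their values were seen.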
